A study of Drosophila melanogaster with 2 samples.

Results

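The Polycomb group genes described here are 10 Drosophila genes: ph-p, ph-d, Pc, Psc, Su(z)2 and Sce of the complex PRC1, E(z), esc and Su(z)12 of the complex PRC2, and pho, whose DNA-binding product belongs to PhoRC. They were taken by name from 13968 annotated protein-coding genes, and all 10 were found in the annotation. Binding of tramtrack (ttk), a BTB zinc-finger repressor, was read at them by chromatin immunoprecipitation and sequencing (ChIP-seq) of whole embryos aged 0 to 24 h. The embryos came from 1 transgenic strain that makes a ttk-eGFP fusion protein; by the description the antibody was to GFP, although another label field names ttk, and both libraries share the strain, the whole-organism source and the stage range. There was 1 group of 2 biological replicates. No control library was analysed here, so a summit cannot be told apart from signal that does not come from the tagged protein, and a whole embryo cannot show which cells carried it.

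Polycomb group proteins keep genes silent through cell divisions. PRC2 methylates histone H3 at a lysine through its catalytic subunit E(z), PRC1 recognises that mark through the chromodomain of Pc and attaches ubiquitin to histone H2A, and Pho, the product of pho, binds DNA at the response elements on which these complexes assemble. The group is best known in the fly embryo for holding the Hox genes off outside their segments. The chromatin of several of its own genes, the ph locus among them, is also known to carry these proteins.

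A peak below is an interval in the authors' list of peaks reproducible between replicates, called conservative, and its summit is the base the authors marked as its highest point. The signal is the authors' value for a peak. It was used to order peaks within a list and to set the replicates side by side, although its normalization between replicates is unknown. The conservative list held 3827 peaks, 3815 of them on the chromosome arms, with a median signal of 122 and a range of 2.10 to 2281. Each replicate also had a ranked list of all candidate peaks (91874 in replicate 1 and 116688 in replicate 2) and a thresholded list (3203 and 3075 peaks), in which no peak scored under 830 for reproducibility. A score of that size was not enough to be listed: 92 of the 3919 peaks of the whole series that reached it are not in the conservative list as analysed here, 51 of them on chromosome 3R and 22 on 2L. None of the 92 lay within 2 kb of a Polycomb group gene of the set. A summit was counted for a gene when it lay in the gene or within 2 kb of it, and supported by a replicate when that replicate's own list had a summit within 150 bp. Read depth is unknown because the files hold peaks and not counts.

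The sequences under 6 of the summits are shown because they are the sites that the following results turn on: both strong sites inside ph-p, the promoter site of its duplicate ph-d, and the sites at the promoters of E(z), Su(z)12 and the gene next to Pc. Each is the plus strand of 201 bases of assembly Release 6 (dm6, the build of all coordinates here), with the summit at its central base, and capitals mark the letters of the motifs named further on and of ATGAAA, a run picked out after the windows were read. They lie at chrX:2137248-2137448, chrX:2137794-2137994, chrX:2123457-2123657, chr3L:10637960-10638160, chr3L:19923292-19923492 and chr3L:21304471-21304671, in the order shown.
ph-p strongest: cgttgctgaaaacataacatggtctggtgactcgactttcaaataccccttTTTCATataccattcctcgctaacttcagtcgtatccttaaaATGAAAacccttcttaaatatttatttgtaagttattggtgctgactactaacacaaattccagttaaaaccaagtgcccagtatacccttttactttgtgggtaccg
ph-p second: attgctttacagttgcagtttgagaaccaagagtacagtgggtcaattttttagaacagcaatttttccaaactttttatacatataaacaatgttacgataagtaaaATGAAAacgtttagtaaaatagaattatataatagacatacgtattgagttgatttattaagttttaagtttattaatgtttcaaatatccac
ph-d promoter: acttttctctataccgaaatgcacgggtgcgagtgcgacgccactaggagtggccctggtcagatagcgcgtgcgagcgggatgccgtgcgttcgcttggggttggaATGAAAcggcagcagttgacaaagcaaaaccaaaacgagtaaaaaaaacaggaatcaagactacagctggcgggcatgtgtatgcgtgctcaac
E(z) promoter: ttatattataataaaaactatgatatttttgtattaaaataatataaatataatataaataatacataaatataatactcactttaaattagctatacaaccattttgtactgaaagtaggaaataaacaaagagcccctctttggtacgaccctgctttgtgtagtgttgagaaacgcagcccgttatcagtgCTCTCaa
Su(z)12 promoter: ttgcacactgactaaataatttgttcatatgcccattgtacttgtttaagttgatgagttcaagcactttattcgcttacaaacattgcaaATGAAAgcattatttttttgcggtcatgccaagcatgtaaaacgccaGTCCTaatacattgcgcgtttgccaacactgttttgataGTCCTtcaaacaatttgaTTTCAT
beside Pc: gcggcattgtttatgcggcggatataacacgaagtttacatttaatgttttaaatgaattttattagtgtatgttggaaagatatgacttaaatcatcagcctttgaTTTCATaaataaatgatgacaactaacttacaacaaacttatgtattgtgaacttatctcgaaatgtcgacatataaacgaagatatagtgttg

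Of the 10 genes, 6 had a conservative summit inside them or no more than 2 kb away (60%), against 28.2% of all 13968 protein-coding genes. They were ph-p, ph-d, Pc, Psc, E(z) and Su(z)12, and they held 10 summits between them. The members are long, with a median length of 8360 bp against 2164 bp for all protein-coding genes. Among the 7433 genes no shorter than the shortest member (1599 bp, Sce) and no longer than the longest (14998 bp, Psc), 30.3% had a summit. The genes in this range were not matched to the lengths of the members, so that share does not adjust for length. A summit within 500 bp of a transcription start site (TSS) of the gene itself was found at 4 members (ph-p, ph-d, E(z) and Su(z)12; 40%), against 14.2% of all protein-coding genes. By complex, 4 of the 6 PRC1 genes held 8 summits and 2 of the 3 PRC2 genes held 2, while pho held none. These counts do not compare the complexes, because they are not adjusted for length and 4 of the 8 are at ph-p. The PRC1 genes other than Sce are 7560 to 14998 bp long and the PRC2 genes 2202 to 5221 bp.

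**Figure D1:**
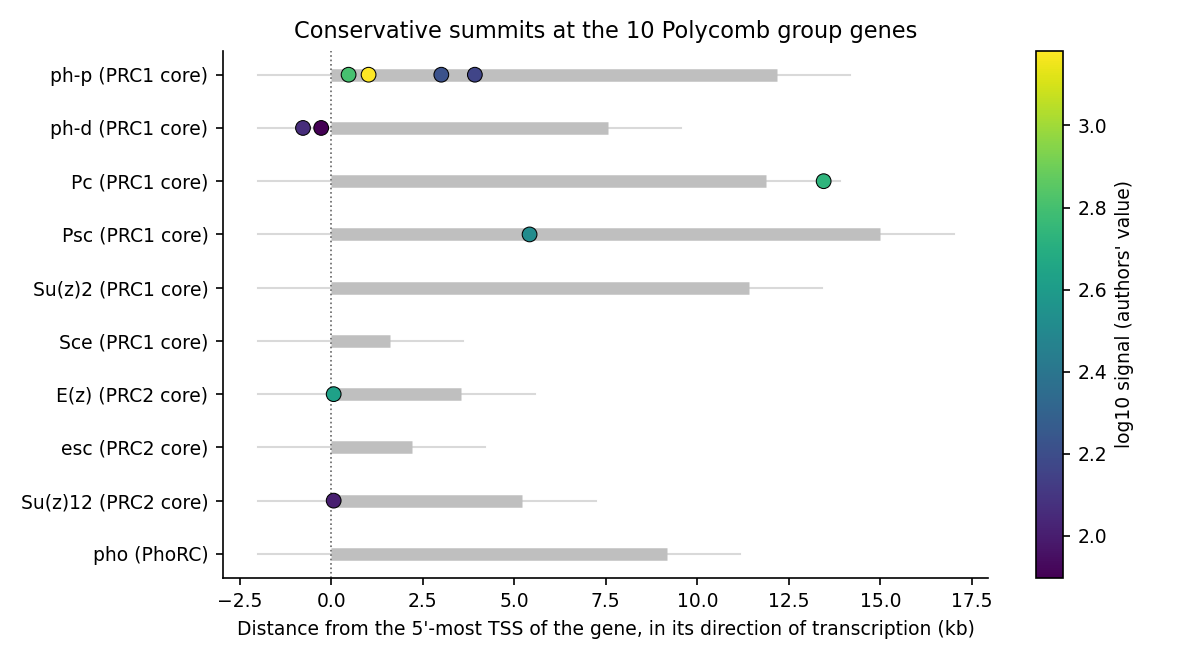
Conservative summits along each of the 10 genes (points), coloured by log10 signal, against the distance in kb from the gene's 5'-most TSS in its direction of transcription. Thick bars are the genes and thin lines the 2 kb on each side; ph-p carries 4 points in its 5' part, E(z) and Su(z)12 carry 1 each at the TSS, and the point of Pc lies beyond its 3' end.

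The strongest summit of the set, and the seventh of the conservative list, lay inside ph-p, which encodes a Polyhomeotic subunit of PRC1 with a SAM domain through which the complexes polymerise. ph-p (X:2126210-2138371, minus strand) held 4 summits, all inside the gene and all in its 5' part. The peak at X:2137177-2137507 reached a signal of 1521, with 736 in replicate 1 and 788 in replicate 2, and its summit was 1023 bp downstream of the 5'-most TSS and 493 bp upstream of an internal one. The peak at X:2137743-2138040 had a signal of 635 and ranked 102nd, with 392 in replicate 1 and 252 in replicate 2, and its summit was 477 bp downstream of the 5'-most TSS. These sites lie 546 bp apart, between the same alternative starts. Farther in, intronic summits 3009 and 3925 bp downstream of the 5'-most TSS had signals of 166 and 145 (ranks 1264 and 1532). The replicates ordered that weaker pair in opposite ways: replicate 1 gave 108 and 64.1, and replicate 2 gave 66.9 and 95.7. By its strongest summit ph-p stood 19th of the 3944 protein-coding genes with a summit, and 1.37% of all protein-coding genes had 4 or more summits, as it did.

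Its tandem duplicate ph-d had far weaker conservative summits, and only upstream of the gene. ph-d (X:2115727-2123286, minus strand) encodes the other Polyhomeotic subunit and starts 2923 bp beyond the end of ph-p. The peak at X:2123882-2124225, 768 bp upstream of its TSS, reached 115 (56.6 in replicate 1 and 73.9 in replicate 2). The peak at X:2123385-2123728, 271 bp upstream, reached 79.0 (49.4 in replicate 1 and 52.9 in replicate 2). Both lay below the median of the list, at ranks 2074 and 3198 of 3827, and both passed the threshold in each replicate's own list. The duplicates share sequence at these sites. Of the 309 stretches of 36 bases in the promoter peak of ph-d, 71 also occurred, base for base, at ph-p between X:2136960 and X:2137235, beside and partly under its strongest peak. Of the 296 stretches in that peak of ph-p, 14 occurred at ph-d. None of the stretches in the other 8 member peaks occurred elsewhere on the arms. Shared sequence was sought only under the peaks and not along the rest of either gene. How reads that fit both genes were placed is not stated in the labels or files. The part of such reads in the promoter peak of ph-d, and in the contrast between the duplicates, was not tested.

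The remaining PRC1 genes with a summit were Psc and Pc, and in neither did it lie at the gene's own TSS. Psc (2R:12965997-12980994, minus strand), which encodes a RING-finger subunit that compacts chromatin, held 1 summit in an intron, 5083 bp downstream of its nearest TSS. That peak (2R:12975477-12975675) had a signal of 330 and ranked 396th, with replicate signals of 150 (replicate 1) and 173 (replicate 2), a log2 ratio of -0.21. Pc (3L:21306138-21318020, minus strand), the chromodomain subunit, had its summit 1567 bp beyond the 3' end, the farthest inside the 2 kb limit of any member. That peak (3L:21304459-21304689) had a signal of 541 and ranked 140th, with 320 in replicate 1 and 221 in replicate 2. It lay between the starts of the divergent genes CG11309 (87 bp downstream of its TSS) and CG7632 (126 bp upstream), and 13449 bp from the TSS of Pc. Counting for a member only summits inside it or nearest to its TSS left 5 of 10, without Pc, against 17.5% of all protein-coding genes under the same rule, which was chosen after seeing the data.

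At the PRC2 genes E(z) and Su(z)12 the summit lay at the gene's own start, where a neighbour begins on the opposite strand. E(z) (3L:10634575-10638130, minus strand), the histone methyltransferase, had 1 peak at 3L:10637909-10638133 with a signal of 424 and rank 235, and 247 in replicate 1 and 179 in replicate 2. Its summit was 70 bp downstream of the TSS of E(z) and 86 bp upstream of that of Cnep1r2, a gene for a regulatory subunit of a nuclear envelope phosphatase. Su(z)12 (3L:19918242-19923462, minus strand), a zinc-finger subunit that PRC2 needs for its activity, had 1 peak at 3L:19923220-19923563 with a signal of 102 and rank 2429. Its summit was also 70 bp downstream of the gene's TSS, and 279 bp upstream of that of Pfdn6, a prefoldin subunit gene. Here the replicates were far apart in support: replicate 2 had a peak of 72.2 with the top score of 1000, and replicate 1 had a peak of 37.8, centred 90 bp away, with a score of 63. This was the only member summit absent from a replicate's thresholded list (that of replicate 1) and from the authors' larger list.

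Support in both replicates was general at the other members. All 10 summits had a peak in both ranked lists, as did 93.8% of the 3815 conservative summits on the arms, and 9 of 10 had one in both thresholded lists, as did 54.2% of all. In the larger list 9 of 10 had a peak, as did 90.5% of all. The log2 ratio of replicate 1 to replicate 2 was above 0 at 4 summits and below 0 at 6, from 0.70 at an intronic ph-p summit to -0.93 at Su(z)12. Its median was -0.10 ± 0.56 (SD over 10 summits), against 0.15 ± 0.49 (SD over 3579 summits) for the whole list. Of the 10 summits 7 had a signal of at least the list's median, the exceptions being those of ph-d and Su(z)12.

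**Figure D2:**
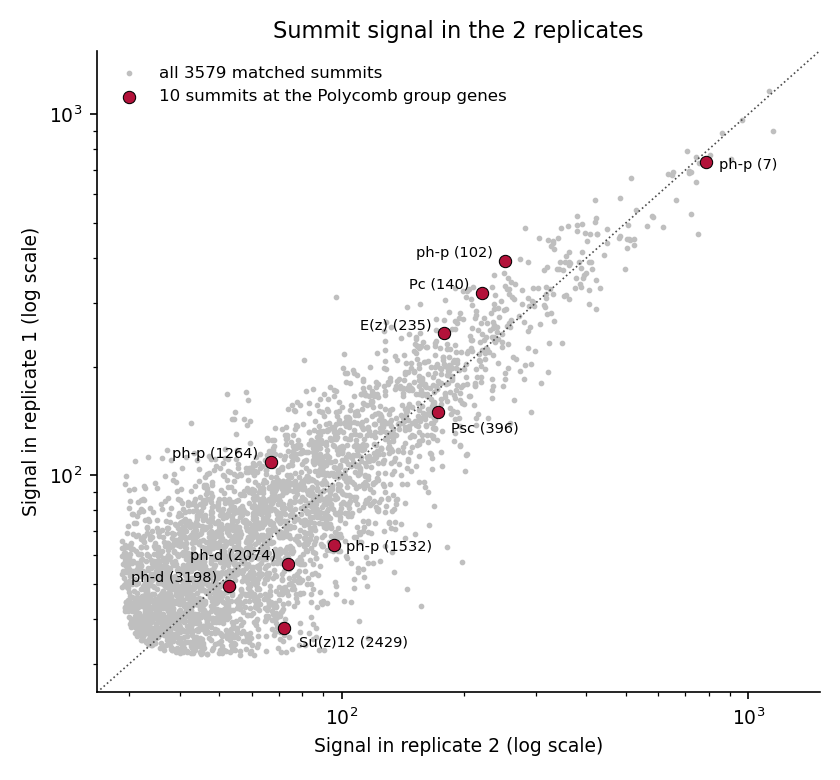
Signal in replicate 1 against signal in replicate 2 on log axes for the 3579 conservative summits matched in both ranked lists (grey) and the 10 summits at the Polycomb group genes (red, labelled by gene and rank in the conservative list); the dotted line marks equal signal. The strongest ph-p summit lies near the line at 736 in replicate 1 and 788 in replicate 2, and Su(z)12 lies farthest below it at 37.8 and 72.2.

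The 4 members without a conservative summit were Su(z)2, Sce, esc and pho, and they were not alike. Su(z)2 (2R:12996501-13007911, plus strand), a close relative of Psc that lies beside it, came nearest to the threshold. The larger list placed 2 peaks there, 1 of signal 82.1 lying 490 bp beyond the 3' end and 1 of signal 67.3 in an intron 1463 bp downstream of a TSS. The peak beyond the end had 61.5 in replicate 1, with the top score, and 26.2 in replicate 2, with a score of 209. The intronic peak had 42.3 in replicate 1 and 24.7 in replicate 2, with scores of 402 and 219. In the thresholded list of replicate 1 alone Su(z)2 had a summit and Su(z)12 did not, and in that of replicate 2 alone the reverse held.

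Sce (3R:27680431-27682029, minus strand), the RING-finger ligase that ubiquitinates histone H2A, and esc (2L:11827204-11829405, minus strand), the WD-repeat subunit that recognises methylated histone H3, had only weak ranked peaks. The strongest at Sce was 30.6 in replicate 1, upstream of the TSS, and 32.1 in replicate 2, downstream of it, with scores of 38 and 74. The strongest at esc was 18.6 in replicate 1, beyond the 3' end, and 21.8 in replicate 2, at the TSS, with scores of 19 and 240. In neither gene did the replicates place their strongest peak at the same site. These are above the median signals of the ranked lists (15.2 in replicate 1 and 13.3 in replicate 2) and below those of the thresholded lists (77.0 and 71.0). Each is the strongest of several ranked peaks (5 in each replicate at Sce, 10 in replicate 1 and 4 in replicate 2 at esc). The medians are over single peaks, so lying above those of the ranked lists does not set these genes apart. The conservative summits nearest to Sce and esc lay 24983 bp and 10642 bp away, at the promoter of CG12877 and in a coding exon near CycY.

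pho differed from all of these in having no ranked peak at all within 2 kb, in either replicate. It lies on the small chromosome 4 (4:1172469-1181628, minus strand), and it encodes the zinc-finger protein that marks Polycomb response elements. The ranked list of replicate 1 held 228 peaks on that chromosome (169 per Mb, against 664 per Mb over the arms) and that of replicate 2 held 48 (35.6 against 831 per Mb). The ranked peaks nearest to pho lay 37630 bp away in replicate 1 and 97736 bp away in replicate 2. The only conservative summit of the chromosome, 145184 bp from pho, was at the promoter of PlexA with a signal of 457. Of the stretches of 36 bases at pho and 2 kb around it, 11.6% also occurred elsewhere on the arms. Its lack of peaks cannot be told apart from the thin coverage of the chromosome by ranked peaks.

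**Figure D3:**
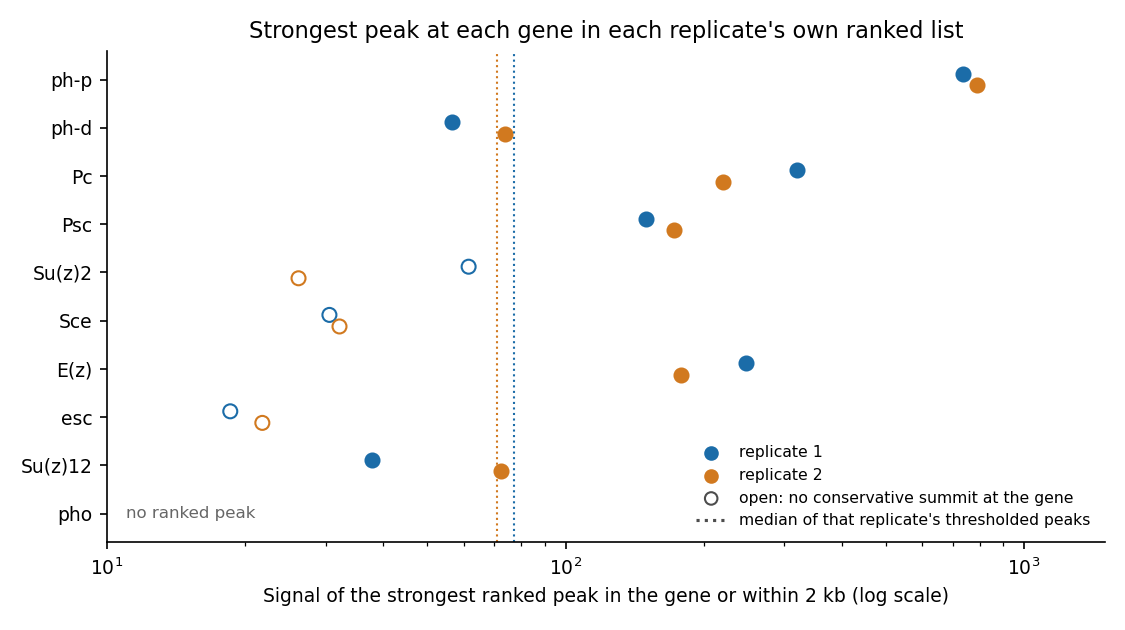
Signal of the strongest peak in the gene or within 2 kb in the own ranked list of replicate 1 (blue) and of replicate 2 (orange), on a log axis. Filled points are genes with a conservative summit and open points genes without one, and dotted lines are the medians of the thresholded lists (77.0 in replicate 1 and 71.0 in replicate 2); Sce and esc lie at 32.1 or less in both replicates, Su(z)2 is split at 61.5 and 26.2, and pho has no peak.

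Just outside the 2 kb limit lay a summit stronger than that of Psc itself. It was 4214 bp upstream of the 5'-most TSS of Psc and 11293 bp upstream of Su(z)2, in the 15506 bp between these neighbours, which point away from each other. That peak (2R:12985063-12985346) had a signal of 991 and ranked 29th, with 580 in replicate 1 and 421 in replicate 2. It lay within 500 bp of a start of the non-coding gene lncRNA:CR44339. With a flank of 5 kb it was counted for Psc, and the number of members with a summit was again 6, against 40.2% of all protein-coding genes at that flank. Next outside the limit came the summit upstream of RhoGDI, 5180 bp from Su(z)12 (signal 97.3), whereas the summit 2156 bp from ph-p is the one counted for ph-d.

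**Figure D4:**
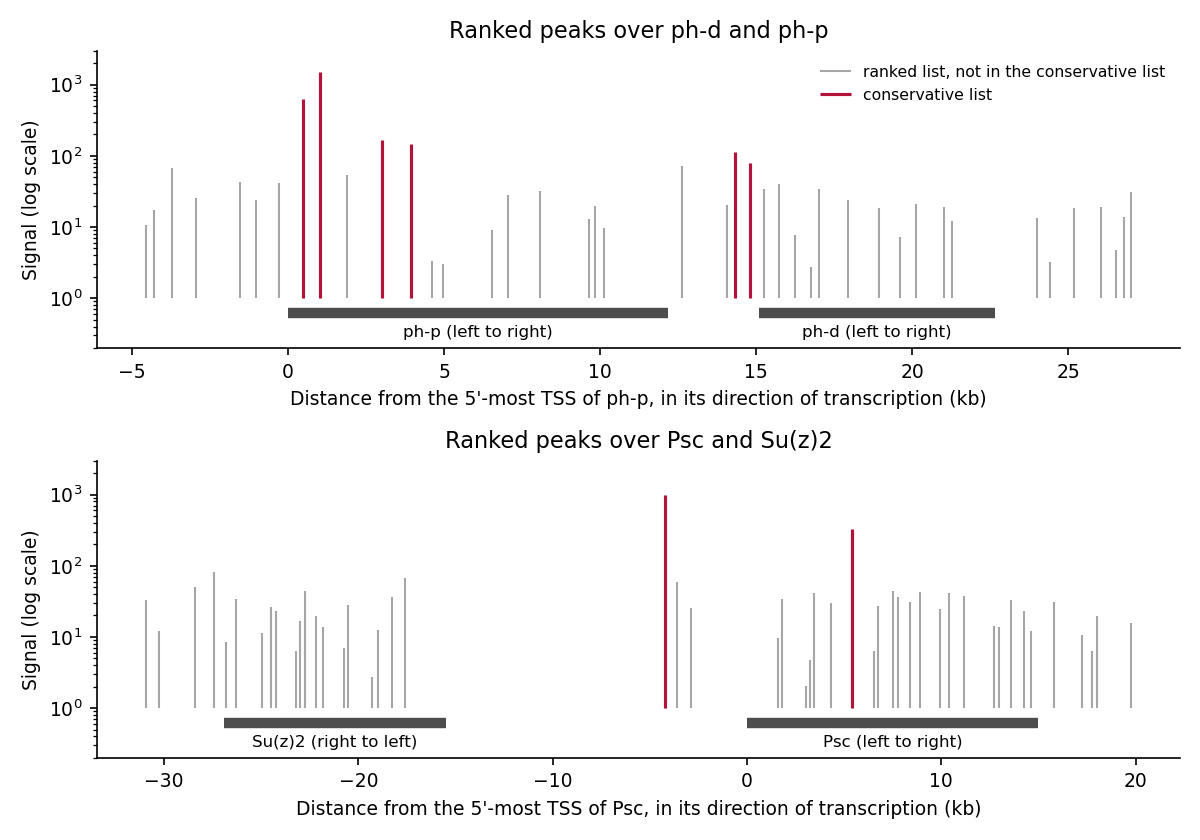
Ranked peaks of the whole series over the 2 pairs of neighbouring genes, by signal on a log axis, against the distance in kb from the 5'-most TSS of ph-p (upper panel) and of Psc (lower panel). Red lines are peaks in the conservative list and grey lines the others; the upper panel has 4 red lines in ph-p and 2 upstream of ph-d, and the lower panel has the peak of 991 upstream of Psc and the peak of 330 inside it, with none at Su(z)2.

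The windows shown above held few of the known sites. Matches were counted on either strand in the 201 bases around each of the 10 summits, and around all 3815. AGGAC, the core of the site of the tramtrack isoform Ttk69, was present at 2 of 10 (9.36% of all) and GGTCCT, which contains its reverse complement, at 1 (1.42%). AGGGCGG and AGGGTGG, forms of the Ttk88 site, were present at 0 (0.813% and 2.12% of all). GCCAT, the core bound by Pho, was at 2 (26.3%) and GAGAG, the GAGA factor site, at 3 (24.0%). TATCGATA, bound by DREF, and GGTCACAC, bound by M1BP, were at 0 (2.39% and 1.65%). In both strong ph-p windows none of these letters occurred. E(z) had only CTCTC, the reverse complement of GAGAG, 96 bp from the summit, and Su(z)12 had GTCCT 40 and 79 bp from it. The weakest ph-p summit held the longer Ttk69 match, a GAGA factor match and a Pho core match. The 10 windows had a median GC content of 35.6% (25.4 to 53.2%), against 35.3% for all summits (13.9 to 67.2%). The highest of the 10 was the promoter peak of ph-d.

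Among 25 other genes of Polycomb complexes and their recruiters, 12 had a conservative summit by the same 2 kb rule (48%, against the same 28.2% of all protein-coding genes) and 3 had one within 500 bp of their own TSS (12%, against 14.2%). They were the PRC2-related genes Caf1-55, Pcl and jing, phol, the PR-DUB gene caly, l(3)73Ah, lolal, E(Pc) and 4 of the 7 DNA-binding factors (Trl, psq, Dsp1 and grh). Counting only summits found in both replicates' own thresholded lists left 9 of the 25, against 19.1% of all protein-coding genes. The genes lost were l(3)73Ah, lolal and E(Pc), and this rule too was chosen after seeing the data. The pair of strongest summits stood at promoters of neighbours. At Caf1-55, a histone chaperone of PRC2, the signal was 1496 (790 in replicate 1 and 706 in replicate 2), 1973 bp beyond the gene and 128 bp upstream of mRpS10. At phol, the paralogue of pho, it was 914 (466 in replicate 1 and 425 in replicate 2), 1520 bp from the gene and 111 bp upstream of CG3552. At Trl (GAGA factor) and grh (Grainy head) the strongest summits lay inside the gene, with signals of 844 and 370. At Dsp1, an HMG-box gene, the strongest had a signal of 305 and lay 605 bp outside it. That summit was in an intron of the neighbour CG9921, 593 bp downstream of its TSS, and a summit inside Dsp1 had a signal of 162. With only summits inside the gene or nearest to its TSS, again a setting chosen after seeing the data, 8 of the 25 remained, against 17.5% of all protein-coding genes, and with no flank 6 did, against 10.1%. Among the 6 are jing, psq and grh, long genes of 119787, 59393 and 41689 bp, against a median of 2164 bp for all protein-coding genes. No share for genes of such length was taken, so neither these counts nor the 48% are adjusted for length. Jarid2, escl, Scm, Sfmbt, Asx, sxc, Kdm2, crm, mxc, corto, cg, Spps and z had no summit in the conservative list. Of these, Kdm2 differs in that 5 ranked peaks of the series there reached a score of 830 without being in that list. The strongest had a signal of 274 in the series list, 4266 bp downstream of the nearest TSS of Kdm2. The strongest at the gene was 187 in replicate 1, at 4294 bp, and 103 in replicate 2, at 2619 bp. The value of replicate 2 thus belongs to another site. Why they are not listed is not stated in the labels or files.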

How the data were processed

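Per the labels, ChIP-seq was done on 2 biological replicates of ttk-eGFP embryos with fragments of 200 to 800 bp. The authors deposited peak lists in dm6 coordinates, each peak with a signal, an IDR (irreproducible discovery rate) score and a summit offset; no source used here gives the aligner, peak caller or signal normalization. Every thresholded peak had a score of at least 830. Here, summits were assigned to genes of Ensembl release 115 (transposable elements left out, chromosome arms only), matched between lists by the nearest summit within 150 bp, and read against the NCBI sequence of the same assembly. Coordinates are 1-based. The code of the window and matching rules was checked on summit positions planted at known distances, and it sorted all of them as the rules state. That check cannot show whether the rules assign real summits to the right gene. No test was run: there was 1 group, and the members and lists were chosen with earlier results of these data known. Named genes were all members, neighbours with a TSS near a counted summit and each other Polycomb-related gene with a summit (the 5 strongest with values). The other Polycomb-related genes without a summit, and RhoGDI, PlexA, CycY, CG12877 and lncRNA:CR44339, were added after their values were seen. The 2 libraries gave 2 values a peak and no counts. Alternatives were other peak lists, flanks, promoter widths and matching distances. Python 3.11.15, numpy 2.4.6, pandas 2.3.3 and matplotlib 3.10.9 were used.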

Additional observations from a re-analysis of the deposited data

How the results depend on the processing

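Of 45 recomputed counts over the genes, 41 stayed within 1.5 times the reported one. The 6 members with a summit ranged from 4 to 6, falling to 4 with no flank (10.1% of all protein-coding genes) or at or above the list's median signal (18.0%). The list of replicate 2 alone gave 6 members and 10 summits (25% of all genes), and that of replicate 1 gave the same numbers (24.8%), with Su(z)2 in place of Su(z)12. For members with a promoter summit they gave 4 (12.6%) and 3 (11.9%). All ranked peaks with a score of 830 or more, a setting chosen after seeing the data, gave 6 members (28.6%) and 13 other genes, Kdm2 being the one added. The count of members with a promoter summit was 2 with promoters of 250 bp (11.0% of all; E(z) and Su(z)12) and 2 above the median signal (8.75%; ph-p and E(z)). Other Polycomb-related genes were 6 with no flank and 7 with 500 bp (20.7% of all), and 9 to 13 by single replicate. Of 90 counts per member, 79 stayed within that limit. No paired analysis was possible because there is 1 group. Depth is unknown, so a gene without a summit may hold binding too weak to be listed, but the ranked peaks at Kdm2 that are not listed are not weak.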

Other observations

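A run of letters near the centre of several of these windows was noticed on reading the sequences and was chosen for that reason, so it carries no test. ATGAAA, on either strand, lay within 20 bp of the summit at 5 of the 10 sites: both strong ph-p sites, the promoter site of ph-d, the site beside Pc and Su(z)12. It was also at 5 of 10 in the windows of 201 bases, against 23.9% of all 3815 conservative summits, and there positions 500 bp to either side gave 3 of 10 each (19.4% and 19.2% for all). In windows of 41 bases it occurred at 6.26% of all summits, and at 4.09% and 3.62% of positions 500 bp to either side of them. For the 10 sites those positions gave 1 of 10 each in the narrow window. The ph-d summits lie 497 bp apart and the strong ph-p summits 546 bp apart, so some positions 500 bp from a member summit fall at or near another. Windows there can hold the same ATGAAA that is counted at the 5 sites, so they are not an independent comparison. The strong ph-p windows share the 12 bases TAAAATGAAAAC, starting 11 bp before the strongest summit and 4 bp after the second, and 2 other windows of 201 bases among the 3815 contain them. Whether any protein binds there was not measured.

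The ranked list of the series had no summit for 13378 bp from the site upstream of Psc to a point 2085 bp inside Su(z)2, of which 11293 bp lie before the start of Su(z)2. The median spacing of ranked summits on the arm was 609 bp and 190 of 23599 spacings were at least as long. The stretch was chosen with the peaks in view, so its place among the spacings carries no test. The gap was 13312 bp in replicate 2, and replicate 1 had ranked summits in it. A spacing of replicate 1 inside it, from 2R:12988296 to 2R:12991057, was 2761 bp, and 1449 of 16871 spacings of that replicate were at least as long. None of the stretches of 36 bases in the gap of the series list occurred elsewhere on the arms.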
